A study of Caenorhabditis elegans with 2 samples.

Results

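Core promoter peaks are the sites of this experiment that lay closest to where genes begin. They are peaks on the 5 autosomes of Caenorhabditis elegans whose summit fell between 200 bp upstream and 200 bp downstream of the closest 5' end annotated for a protein-coding gene. The summit also had to lie in the promoter window of exactly 1 protein-coding gene, 1000 bp upstream to 200 bp downstream of any of its 5' ends, and more than 200 bp from every tRNA gene. Of the 2796 peaks in the authors' list of reproducible peaks, 2192 were autosomal, 1260 of those had a summit in a promoter window, and 905 of these fell in the window of a single gene. The limit of 200 bp around the 5' end left 428, and the condition on tRNA genes removed 7, so 421 peaks at 403 genes are described. They made up 15.1% of the list, with an exact binomial (Clopper-Pearson) 95% interval of 13.8 to 16.4%, and 33.4% of the autosomal promoter peaks (30.8 to 36.1%). The rule itself reads only positions, not signals, replicate values, gene identities or sequences.

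The experiment was a chromatin immunoprecipitation with sequencing (ChIP-seq) of NHR-102, a nuclear hormone receptor, in intact hermaphrodite worms of strain OP463. Both samples carried the allele unc-119(tm4063) on chromosome III and the integrated transgene wgIs463, which gives NHR-102 a GFP-FLAG tag at its C-terminus, and an antibody against GFP was used for the precipitation. The animals were L4 larvae taken 50 hours after their synchronization as starved L1 larvae, which followed bleaching. There was 1 group with 2 biological replicates, so no comparison between conditions exists, and a strain lacking the tag was not analysed here. Signal from the tagged receptor and signal from other sources at these promoters cannot be told apart. Whole animals were used, so the tissue in which a promoter was occupied is unknown.

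The core promoter is the stretch around the transcription start on which RNA polymerase II and its general factors assemble, and sequence-specific factors often bind just upstream of it. Nuclear hormone receptors are transcription factors with a zinc-finger DNA-binding domain, and many of them are switched by small fat-soluble ligands. C. elegans has an unusually large family of them, and several members of the family regulate lipid metabolism and the breakdown of foreign compounds. Breakdown runs through cytochrome P450 enzymes, which oxidise a compound, and through UDP-glucuronosyltransferases and glutathione S-transferases, which attach a sugar or glutathione to it. Many worm messages receive a short leader by trans-splicing, which removes the original start of the transcript, so the annotated 5' end can sit downstream of the true start of transcription.

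The sequences around the summits of 10 of the peaks show what these sites look like. All are 101 bp long, centred on the summit and read 5' to 3' on the strand of the gene, from the RefSeq copy of WBcel235 (ce11). They are examples from 188 peaks on 4 of the autosomes that lay upstream of the 5' end and clear of annotated UTRs. The first pair belongs to the strongest of those peaks, at the histone gene his-37 and at cdc-48.1, and neither holds any of the 4 motifs marked in the others.
his-37, chrV:9546968-9547068, plus strand: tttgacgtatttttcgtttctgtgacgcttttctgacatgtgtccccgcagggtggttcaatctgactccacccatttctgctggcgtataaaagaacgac
cdc-48.1, chrII:10563516-10563616, minus strand: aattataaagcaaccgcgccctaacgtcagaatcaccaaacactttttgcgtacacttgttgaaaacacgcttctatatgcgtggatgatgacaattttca
The next pair holds TGATAA, the sequence read by GATA factors such as those that run the worm intestine. Capitals mark the motif, or its reverse complement where the motif is on the other strand.
nhr-178, chrV:1607988-1608088, minus strand: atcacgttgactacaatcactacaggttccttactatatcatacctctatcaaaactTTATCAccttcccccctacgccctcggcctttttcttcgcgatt
pgp-1, chrIV:12599292-12599392, minus strand: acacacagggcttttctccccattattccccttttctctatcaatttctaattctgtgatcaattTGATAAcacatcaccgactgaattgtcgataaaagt
The following pair holds the E-box CACGTG, which is read by basic helix-loop-helix factors.
E01G4.3, chrII:13462143-13462243, minus strand: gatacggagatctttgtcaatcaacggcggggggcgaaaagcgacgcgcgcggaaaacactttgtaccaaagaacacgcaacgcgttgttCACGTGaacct
snrp-3, chrIV:8687936-8688036, minus strand: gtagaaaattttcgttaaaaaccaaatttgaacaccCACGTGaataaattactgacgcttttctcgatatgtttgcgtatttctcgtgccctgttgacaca
The detoxifying enzyme genes gst-33 and cyp-13A8 show the GAGA repeat, GAGAGA.
gst-33, chrV:3468581-3468681, minus strand: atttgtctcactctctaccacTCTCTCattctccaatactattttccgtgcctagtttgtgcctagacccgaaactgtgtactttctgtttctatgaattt
cyp-13A8, chrII:9807666-9807766, minus strand: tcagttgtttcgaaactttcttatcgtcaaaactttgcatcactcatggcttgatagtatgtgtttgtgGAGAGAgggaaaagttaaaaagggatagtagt
The last pair holds GACGCAG, known from worm promoters occupied by many factors at once.
ntl-11, chrIV:15471576-15471676, minus strand: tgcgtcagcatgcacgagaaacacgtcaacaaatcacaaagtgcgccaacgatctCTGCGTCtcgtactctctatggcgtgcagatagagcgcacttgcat
C34C12.8, chrIII:3460210-3460310, plus strand: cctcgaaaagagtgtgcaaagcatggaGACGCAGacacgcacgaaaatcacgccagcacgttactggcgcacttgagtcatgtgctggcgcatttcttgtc

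Inside the window, summits were denser upstream of the annotated 5' end than downstream. Of the 421 summits, 285 lay upstream (67.7%, 63.0 to 72.1%), and the median position was -69 bp, negative values being upstream. The bases at which a summit would have met every condition of the rule summed to 6979 kb, 8.45% of the autosomes, and carried 60.3 core promoter peaks per Mb. In steps of 50 bp, density was highest from -150 to -100 bp, with 89 peaks or 105 per Mb, and next highest from -200 to -150 bp, with 79 peaks or 95.5 per Mb. From -100 bp to the 5' end it stood at 65.8 and 66.3 per Mb. Past the 5' end it was 49.4, 35.2, 42.7 and 26.3 per Mb in the 4 successive steps, the last holding 23 peaks. The median signal was 153 in the most upstream step and 112 in the most downstream one.

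**Figure D1:**
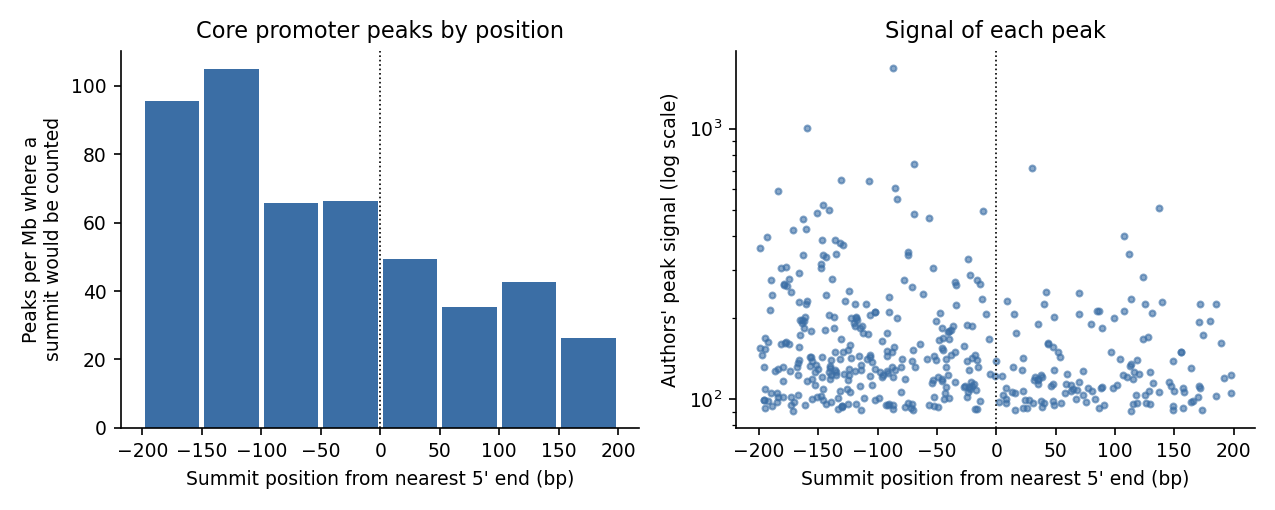
Left, core promoter peaks per Mb in 50 bp steps of summit position from the nearest 5' end (bp, negative is upstream); each bar divides the peaks by the length in which a summit would have been counted. Right, the authors' signal of each of the 421 peaks on a log axis against the same position. Density is highest at -150 to -100 bp (105 per Mb) and lowest at 150 to 200 bp (26.3 per Mb).

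The density of core promoter peaks, 60.3 per Mb, can be set beside other parts of the autosomes measured in the same way. Upstream promoter peaks of single genes, with summits 201 to 1000 bp upstream, stood at 35.5 per Mb over 12799 kb. Bases inside the windows of several genes carried 139 per Mb over 2518 kb, and bases outside all windows 14.2 per Mb over 60105 kb. By chromosome, core promoter peaks numbered 64 for I, 82 for II, 77 for III, 81 for IV and 117 for V. Relative to the length available they ranged only from 55.4 per Mb on I to 75.3 per Mb on III, and median signals from 127 on III to 140 on V.

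With respect to their own gene, 249 summits (59.1%) lay outside the annotated gene, 55 (13.1%) in a 5' UTR, 60 (14.3%) in a coding exon and 57 (13.5%) in an intron. Another gene of some kind covered 40 of the summits (9.50%), and in 21 cases this was a protein-coding gene whose own 5' end was far enough away to leave the summit in a single window. Genes for snoRNAs lay within 200 bp of 10 core promoter summits (2.38%), against 17 of the upstream promoter peaks (3.74%) and 8 of the shared ones (2.28%). For snRNA genes the counts were 4 of 421 core, 18 of 454 upstream and 4 of 351 shared peaks. Unclassified ncRNA genes were within 200 bp of 6.65% of core promoter summits, 14.8% of upstream and 14% of shared ones. At such a summit the protein-coding gene and the RNA gene cannot be told apart as the one the peak belongs to; cmtr-1 (37 bp from a snoRNA gene) and Y75B12B.11 (10 bp) were the snoRNA cases among the 25 strongest.

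Most of the 5' ends at these peaks had an annotated untranslated leader. Of the 412 different 5' ends nearest to a core promoter peak, 56 (13.6%, 10.4 to 17.3%) coincided with the start codon, against 7685 of 25199 (30.5%) autosomal protein-coding 5' ends. Median annotated 5' UTR lengths were 27 bp at the core promoter peaks and 12 bp over all 5' ends.

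The strongest core promoter peak stood at his-37, which encodes histone H4 (V, 9546766 to 9547470). Its summit was 87 bp upstream of the 5' end, and its signal of 1676 ranked 16 among all 2796 peaks, with 840 in replicate 1 and 841 in replicate 2. No 36-letter word around this summit occurs elsewhere in the genome, although histone genes come in near-identical copies. Next was cdc-48.1 (II, 10563393 to 10563777; -159 bp), an AAA ATPase that extracts ubiquitinated proteins, with 1002 in the reproducible list and 522 and 476 in replicates 1 and 2. The glutathione S-transferase gst-33 (V, 3468450 to 3468851; -69 bp) followed with 738, and had 430 in replicate 1 and 313 in replicate 2. Each list has its own scale, so a signal is compared only within its list.

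The next peaks stood at genes with other roles. The Integrator subunit ints-4 (I, 13663194 to 13663583) had a signal of 714 with the summit at +30 bp, in its 5' UTR, and 362 and 351 in the replicates. The CCR4-NOT subunit ntl-11 (IV, 15471448 to 15471784; -131 bp) had 646, with 312 and 334. The cap methyltransferase gene cmtr-1 (II, 15025728 to 15026133; -184 bp) had 586, with 344 and 253. These peaks were high in both replicates. Of other named genes, tos-1 had 638 (V, 9344056 to 9344582; -107 bp), the F-box gene fbxl-2 had 547 (III, 4757002 to 4757325; -84 bp), the kinase gene kin-14 had 508 (I, 7078955 to 7080162; +137 bp, in a coding exon), and fbxb-72, another F-box gene, had 488 at -151 bp. The fbxb-72 peak was the widest of all 421, at 4623 bp.

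Further down the 25, rpl-24.2, named for a protein of the large ribosomal subunit, had a signal of 464 at -163 bp, in an intron of the overlapping gene C03D6.1. The cell cycle repressor lin-9, a subunit of the DREAM complex, had 427 at -160 bp, and the alpha-tubulin gene tba-2 had 386 at -136 bp. The chemoreceptor gene srh-2 had 400 at +108 bp, in its 5' UTR. Genes known only by a sequence name were C34C12.8 (521), Y39B6A.43 (494), Y25C1A.8 (423), Y75B12B.11 (396) and C06E4.6 (371). The remaining 6 of the 25 after gst-33 were nhr-178, gst-7, cyp-13A12, gst-44, cyp-13A8 and ugt-37, with signals from 377 to 603, and they are described with their families. All 25 were found in both replicates, with signals of 180 to 840 in replicate 1 and 161 to 841 in replicate 2. Of the 25 summits, 22 lay upstream of the 5' end.

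**Figure D2:**
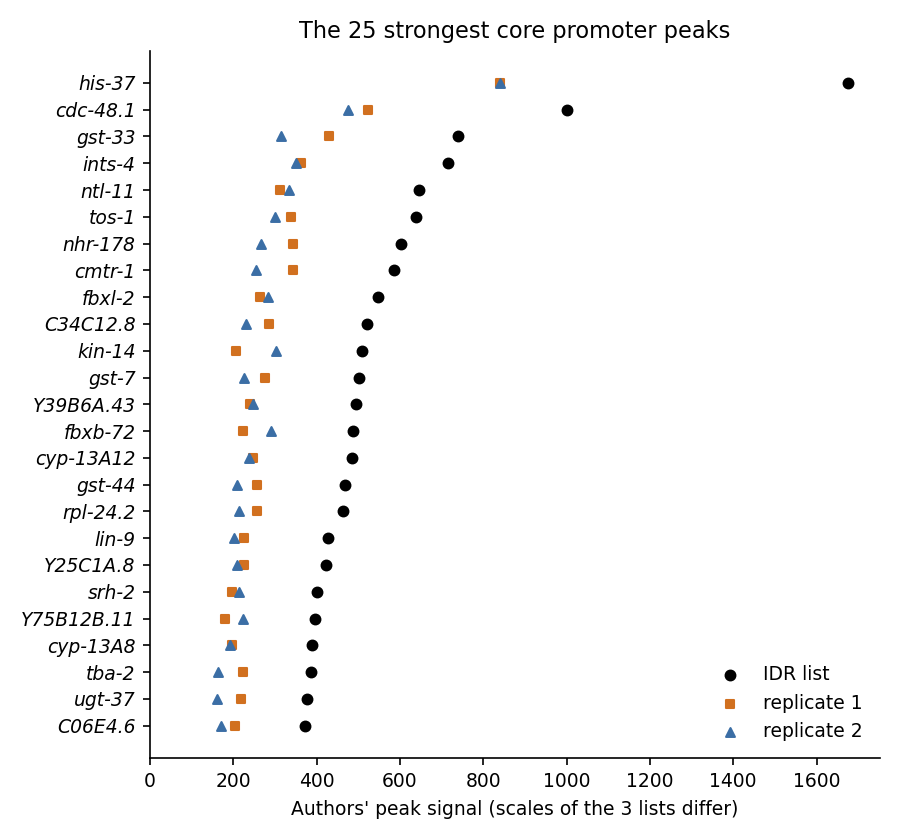
Authors' peak signal (linear axis from 0) of the 25 strongest core promoter peaks, one gene per row, in the reproducible (IDR) list, in replicate 1 and in replicate 2; the 3 lists have their own scales. his-37 and cdc-48.1 lead these peaks in all 3 lists, and the lowest replicate value of the 25 is 161, at ugt-37.

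Over all 403 genes the background was low: a core promoter peak was found at 2.80% of the 14397 autosomal protein-coding genes with at least 1 base where one could have been counted. Families of detoxifying enzymes stood above this share. Among cytochrome P450 genes 12 of 59 had a core promoter peak (20.3%, 11 to 32.8%), among glutathione S-transferases 6 of 41 (14.6%, 5.57 to 29.2%), and among UDP-glucuronosyltransferases 7 of 58 (12.1%, 4.99 to 23.3%). Genes of 1 family can lie side by side and share regulatory sequence, so these intervals, which treat genes as independent, are too narrow. No set test was made. The shares also hold for core promoter peaks only. With promoter summits of any class, 14 of 67 autosomal P450 genes, 8 of 46 glutathione S-transferases and 13 of 63 UDP-glucuronosyltransferases had one. By that count other lists lay higher, such as cytosolic ribosomal proteins (49 of 81) and proteasome genes (10 of 33). Others lay lower, such as tRNA synthetases (3 of 32) and chemoreceptors (16 of 1268). The share of all autosomal genes with a promoter summit of any class is not given here, so these counts have no background. The 2.80% does not serve as one, since it covers core promoter peaks only.

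The P450 peaks were led by cyp-13A12 (III, 13024316 to 13024625; -69 bp) with a signal of 485, and 247 and 238 in the replicates. Second was cyp-13A8 (II, 9807570 to 9807889; -147 bp) with 388, and 197 and 191. Then came cyp-37B1 (206; 115 and 95.9) and cyp-13A2 (189; 117 and 91.3). The other 8 had signals of 94.7 to 175. In a 28.4 kb stretch of chromosome II (9779181 to 9807569), 5 of the 8 P450 genes had a core promoter peak: cyp-13A1, cyp-13A2, cyp-13A4, cyp-13A5 and cyp-13A8. Of the other 3, cyp-13A3, cyp-13A6 and cyp-13A7, 1 could have held one. Adjacent cyp-34A8 and cyp-34A9 on V also each had one. At cyp-33C4, 51.5% of the 36-letter words around the summit recur elsewhere in the genome, and reads from such copies cannot be told apart; no other P450, transferase or receptor peak held such a word.

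Among glutathione S-transferases, gst-33 was followed by gst-7 (II, 4881659 to 4882162; -141 bp; 501, with 275 and 225 in the replicates) and gst-44 (V, 16390683 to 16391002; -57 bp; 468, with 256 and 209). The weaker peaks were at gst-5 (152), gst-9 (146) and gst-20 (144). The 3 strongest of this family thus all ranked among the first 16 core promoter peaks. UDP-glucuronosyltransferase peaks were weaker. The strongest, ugt-37 (V, 7145265 to 7145730; -132 bp), had 377, with 217 and 161, followed by ugt-39 (190) less than 20 kb away, ugt-54 (132) and ugt-26 (121), and the weakest was ugt-65 (91.3). All 26 peaks of the 3 enzyme families had a median signal of 145, against 132 for the other 395 core promoter peaks, and the same typical position, -69.0 against -68.0 bp.

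Nuclear hormone receptor genes, the family of NHR-102 itself, had a core promoter peak in 15 of 233 cases (6.44%, 3.65 to 10.4%). The strongest was nhr-178 (V, 1607798 to 1608231; -85 bp) with a signal of 603, and 342 and 267 in the replicates. It was followed by nhr-58 (270; 152 and 117), nhr-210 (224) and nhr-66 (200; 107 and 92.8). The others, among them nhr-8, which acts in the response to foreign compounds, ranged from 95.4 to 180, with nhr-8 at 128. Of the 15 genes, 9 had another receptor gene with a core promoter peak less than 20 kb away, all on V: nhr-202 with nhr-203, nhr-58 with nhr-132 and nhr-210, nhr-177 with nhr-178, and nhr-206 with nhr-207. This search for neighbours was added after the data had been seen. How many of the 233 receptor genes lie within 20 kb of another, with or without a peak, was not counted. The 9 of 15 therefore cannot show whether the peaks are grouped more closely than the genes. The gene nhr-102 had no summit anywhere in its promoter window, and neither had unc-119.

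Shares also lay above the background of 2.80% in the housekeeping lists, with 2 exceptions, heat shock and chaperone genes (1 of 37, 2.70%) and ubiquitin conjugation genes (0 of 19, which allows up to 17.6%). Each share rests on 1 to 4 genes elsewhere, and many genes of these lists could not hold a core promoter peak by the rule. Genes were listed as cytosolic ribosomal proteins by name. Of the 81 on autosomes only 33 could have held a core promoter peak, and 2 did (6.06%, 0.743 to 20.2%). These were rpl-24.2 and rps-16 (signal 91.4), while 49 genes of the list had a promoter summit of any class. Histone genes were alike, with 6 of 47 eligible and 1, his-37, with a peak (16.7%, 0.421 to 64.1%). Splicing factors had 3 of 27 (11.1%, 2.35 to 29.2%): snrp-3 (262), rsp-6 (168) and lsm-3 (142). Cell cycle and replication genes had 4 of 40 (10%, 2.79 to 23.7%): cdc-48.1, the kinase cdk-7 (195), cyclin D, cyd-1 (191), and mcm-4 of the replicative helicase (143). Energy metabolism gave 3 of 33 genes of glycolysis and the TCA cycle (9.09%), idh-1 (114), fum-1 (104) and hxk-3 (92.4), and 2 of 24 of the respiratory chain (8.33%), cox-5B of complex IV (331) and nuo-2 of complex I (103).

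Proteasome genes gave 2 of 14 (14.3%, 1.78 to 42.8%), rpn-11 (234) and rpt-1 (104), a share above the 12.1% of the UDP-glucuronosyltransferases, with overlapping intervals. Nuclear pore genes gave 2 of 26 (7.69%), npp-8 (308) and npp-20 (129), and mitochondrial ribosomal proteins 2 of 40 (5.00%), mrpl-28 (210) and mrpl-55 (152). Vesicle transport genes gave 3 of 57 (5.26%): sec-24.1 of the COPII coat (340), vps-25 (264) and, weakest of the 3, vps-28. Single peaks were at eif-2Bdelta (141) of 22 translation factors, fars-3 (112) of 24 tRNA synthetases, sti-1 (164) of 37 heat shock and chaperone genes, timm-17B.1 (156) of 13 mitochondrial import genes, rpb-9 (93.0) of 13 RNA polymerase genes, vha-11 (113) of 12 vacuolar ATPase genes and tba-2 of 16 actin and tubulin genes. The single peaks made up 2.70% to 8.33% of their lists, and the intervals of all these housekeeping lists include the background.

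Large families of genes with narrow expression had almost no core promoter peaks. Chemoreceptor genes had 2 of 1190 (0.168%, 0.0204 to 0.606%), srh-2 (400) and srv-1 (178). Cuticle collagens had 1 of 127 (0.787%, 0.0199 to 4.31%), sqt-3 (91.0), and C-type lectins 1 of 190 (0.526%, 0.0133 to 2.90%), clec-150 (123). The interval for chemoreceptors lies below the background of 2.80%, while those for collagens and lectins include it. None was found at 55 homeobox genes, which allows a share of up to 6.49%, or at 32 major sperm protein genes (up to 10.9%). Of marker genes for intestine (10 genes that could have held a peak), germline (8), neurons (8), body wall muscle (7) and pharynx (8), none had one, and of 6 for epidermis only sqt-3 did. Peaks at markers do not measure expression, so these counts leave the tissue unknown.

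**Figure D3:**
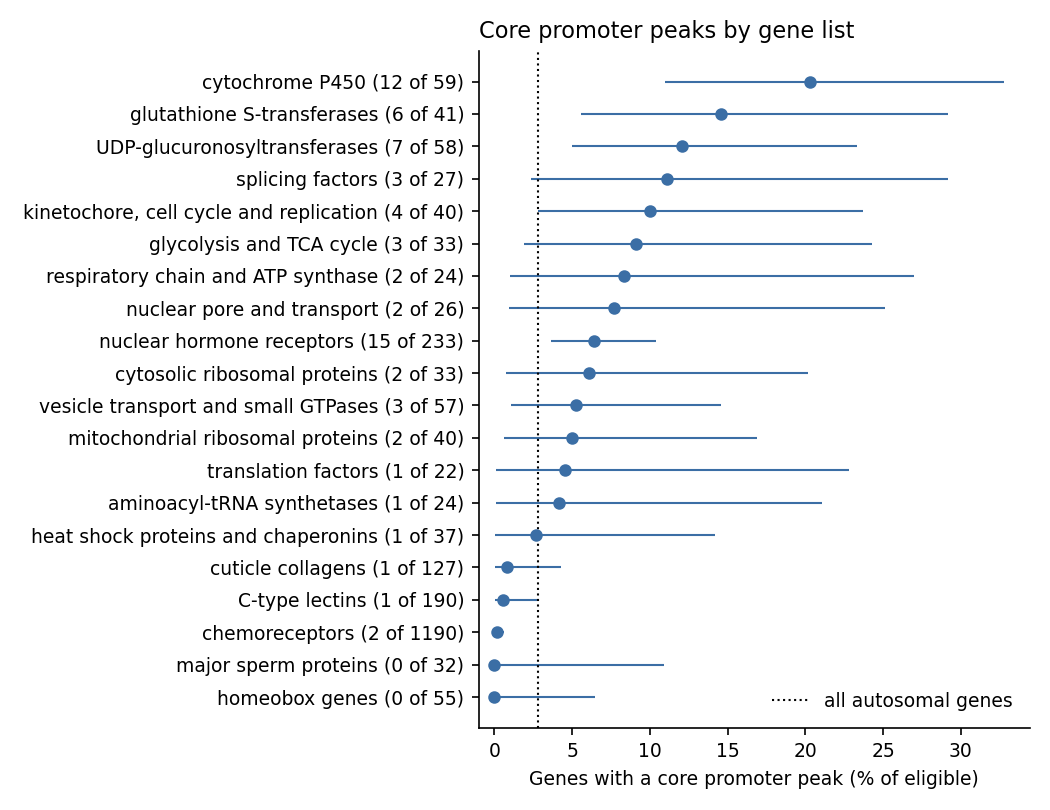
Share of genes in each list shown with a core promoter peak, in percent of those where one could have been counted (counts in brackets). Points are shares, lines exact 95% intervals, and the dotted line is the share over all autosomal protein-coding genes (2.80%). Marker lists and lists with fewer such genes than the 22 translation factors, among them histones and proteasome genes, are left out. Cytochrome P450 genes are highest at 20.3%, and chemoreceptors lie at 0.168%.

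Some genes had more than 1 core promoter peak, in 1 promoter or at different 5' ends. There were 17 such genes, and wdr-23, which encodes a repressor of the detoxification regulator SKN-1, had 3, at -165, +35 and +67 bp of their nearest 5' ends, with signals of 100 to 173. Close pairs, led by signal, were those of his-37 (-87 and +114 bp; 1676 and 235), kin-14 (+137 and -62; 508 and 244), gst-7 (-141 and +58; 501 and 105) and kel-3 (-143 and +49; 334 and 201). At the chromatin remodeller nurf-1 the summits lay 5505 bp apart, each near a 5' end of its own (-74 and -199 bp from it; 351 and 154), and at E01G4.3 7237 bp apart (-148 and +172; 315 and 224). Of 18 neighbouring summit pairs within a gene, 11 were spaced 199 to 206 bp apart, and the other 7 were 1239 to 7237 bp apart. The cause of the short spacing was not tested. In his-37, kin-14 and kel-3 both summits lay in 1 peak interval. Further promoter summits of any class were present at 43 of the 403 genes.

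Signals of core promoter peaks were lower at the median than those of the other promoter classes. Their median was 132 and their upper quartile 193, against 142 and 216 for upstream promoter peaks of single genes, 165 and 255 for shared ones, and 143 and 213 for the whole list. The 1398 strongest peaks of the list held 42.5% of the core promoter peaks (37.7 to 47.4%), 49.8% of the upstream ones (45.1 to 54.5%) and 61.5% of the shared ones (56.2 to 66.7%). A width of exactly 444 bp with the summit in the middle was recorded for 270 of the 421 (64.1%). Their median signal was 118, against 224 for the other 151. At the lower end stood ugt-65 (91.3), sqt-3 (91.0), hlh-11 (90.9), gldi-8 (90.8) and F52E1.9 (90.7). Words of 36 letters that recur elsewhere in the genome touched 5 core promoter summits (1.19%), 25 upstream ones (5.51%) and 16 shared ones (4.56%).

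Split by signal, the 105 strongest core promoter peaks lay further upstream than the 106 weakest. In 4 sets of falling signal, median positions were -106, -86, -27 and -32.5 bp, and 78.1%, 77.1%, 61.0% and 54.7% of summits were upstream. GC content moved in part with this order, with a median of 45.5% in the strongest set and 41.6% in each of the other 3.

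Nearly all of these summits were covered in the long list of each replicate, but fewer among its strongest peaks. A peak covered the summit in both lists of 30000 peaks in 411 of 421 cases (97.6%), against 444 of 454 upstream and 347 of 351 shared peaks. These long lists reach down to weak calls, such as a signal of 11.6 at rank 26779 in replicate 1. Coverage by them is therefore a loose criterion. Among the 2796 strongest peaks of each replicate, 285 (67.7%, 63.0 to 72.1%) were present in both, 125 in 1 only and 11 in neither; the share in both was 69.2% for upstream and 75.2% for shared peaks. In the 4 sets by signal it was 95.2%, 94.3%, 68.6% and 13.2% from strongest to weakest. The sets are cut by signal in a list made from both replicates, and the limit is the length of that list. A fall towards the weakest set is therefore built in and does not measure how reproducible weak peaks are. Across the 411 peaks Spearman's rho between the replicates' signals was 0.607, against 0.723 across upstream and 0.828 across shared peaks. These values are descriptions, since the list was made from both replicates, all peaks share the same pair of libraries, and the classes differ in their range of signal. Replicate 1 had the higher signal in 247 of the 411.

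Single promoters departed from this. The basic helix-loop-helix gene hlh-11 had a signal of 132 (rank 519) in replicate 1 and 17.8 (rank 15895) in replicate 2. The autophagy gene lgg-1 had 83.5 (rank 1246) and 21 (rank 12376) in the same order. The opposite was seen at lsm-3, with 11.6 (rank 26779) in replicate 1 and 93.1 (rank 948) in replicate 2. F55A11.11 had 54.8 (rank 2558) and 140 (rank 407). At 2 further promoters a single replicate peak covered both summits of the gene, so the values of the weaker summit do not stand for it alone. The second summit of gst-7 had 275 (rank 113) in replicate 1, from the peak that also covers the summit at -141 bp, and 58.2 (rank 2109) in replicate 2. The weaker summit of pigq-1 had 16.3 (rank 18697) in replicate 1 and 107 (rank 733) in replicate 2, where the value comes from the peak that also covers its stronger summit. The strongest core promoter peak missing from a replicate was at Y49A3A.3 (345), in replicate 1. Close summits of other genes, such as his-37, kin-14, kel-3, wdr-23 and F08H9.3, also shared 1 peak per replicate. Their shared values are included among the 411 pairs. Ranks differed by more than 10-fold at 4 of the 411 peaks, the summits of gst-7 and pigq-1 with shared values among them.

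**Figure D4:**
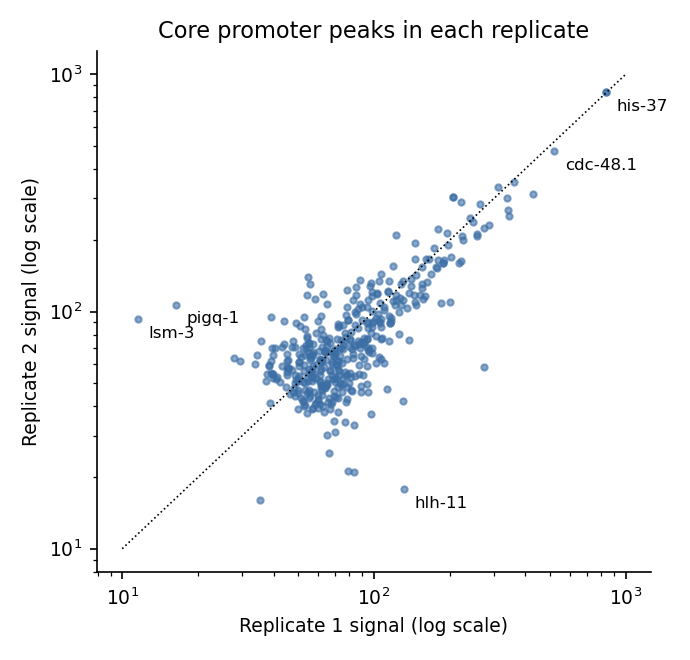
Signal of the replicate 2 peak against that of the replicate 1 peak covering each core promoter summit (both axes log, authors' values, 411 peaks found in both lists); the dotted line marks equal signal. his-37 and cdc-48.1 lie at the top on the line, while lsm-3 and hlh-11 lie far from it, as does pigq-1, whose replicate 2 peak covers both of its summits.

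The DNA at the summits was richer in G and C than its surroundings. In windows of 101 bp the median was 42.6% (quartiles 36.6 and 47.5%), against 33.7% in windows centred 300 bp further upstream, 36.6% in windows 300 bp downstream and 32.7% in windows placed at the same typical position, -69 bp, of all 25190 different autosomal 5' ends. Upstream promoter peaks had 44.6% and shared ones 47.5%. The 26 peaks at genes of the 3 detoxifying enzyme families had a median of 36.1% (range 27.7 to 50.5%) against 42.6% for the other 395.

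**Figure D5:**
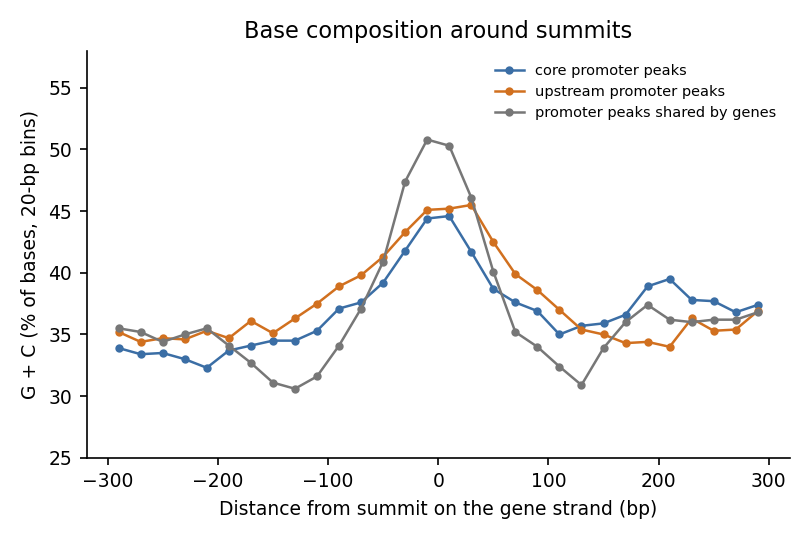
G + C content in percent, in 20 bp steps from 300 bp upstream to 300 bp downstream of the summit on the strand of the nearest gene, averaged over core promoter peaks, upstream promoter peaks and promoter peaks shared by genes; the axis begins at 25%. The curves reach their highest values within 40 bp of the summit, at 44.6%, 45.5% and 50.8%.

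Motifs were searched as exact letters on both strands within 50 bp of the summit, and shares are given beside the windows 300 bp upstream and downstream of the same peaks and beside all autosomal 5' ends. GACGCAG was present at 44 core promoter summits (10.5%, 7.70 to 13.8%), against 1.43% and 0.713% of the flanking windows and 1.77% of all 5' ends. The E-box CACGTG was present at 29 (6.89%, 4.66 to 9.74%), against 0.95%, 1.90% and 2.62%. GAGAGA was present at 77 (18.3%, 14.7 to 22.3%), against 8.79%, 3.09% and 9.28%. TGATAA was present at 73 (17.3%, 13.8 to 21.3%), against 9.98%, 9.03% and 12.3%. Motifs of this kind with several G and C letters are met more often in GC-rich windows, and the part of base composition in these differences was not tested.

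GACGCAG and CACGTG lay close to the summit: 30 and 18 occurrences were within 25 bp of it, against 4 and 4 at 125 to 150 bp, overlapping occurrences included. These counts by distance were added after the data had been seen. GAGAGA and TGATAA were less centred. In successive 25 bp steps away from the summit GAGAGA had 78, 80, 77, 43, 38 and 30 occurrences, nearly level out to 75 bp. TGATAA had 56, 46, 55, 41, 39 and 29. CACGTG reads the same on both strands. The end of GAGAGA can share letters with the start of GACGCAG, and 21 summits had both. None of the 4 was within 50 bp of 249 summits (59.1%), 1 was at 126, 2 were at 42, 3 at 3 and all 4 at 1. Such combinations were not counted in flanking windows, at other 5' ends or in the other promoter classes. Upstream promoter peaks had similar shares to the core ones for GACGCAG (9.25%), CACGTG (7.05%) and TGATAA (17%). For GAGAGA they had 22.9%, just above the interval of the core share. Shares of this motif may thus differ between the 2 classes, which was not tested. Shared promoter peaks had 8.26%, 3.99%, 16.2% and 5.13% for the same motifs.

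GACGCAG and TGATAA differed between strong and weak peaks in opposite senses, by counts that are small. GACGCAG was at 12.9% of the 210 stronger and 8.06% of the 211 weaker core promoter peaks, and TGATAA at 14.8% and 19.9%. Among the 26 peaks at detoxifying enzyme genes, GAGAGA was at 8 (30.8%, 14.3 to 51.8%), against 17.5% of the other 395, and TGATAA at 5 (19.2%, 6.55 to 39.4%), against 17.2%.

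Runs of T and splice acceptor letters were rarer at summits than nearby, and the TATA box less clearly so. The TATA box TATAAA was at 9.74% of core promoter summits, against 14.5% and 12.4% of the flanking windows and 17.3% of all 5' ends. Its interval, 7.08 to 13%, includes the share of the downstream windows, and both his-37 and cdc-48.1 hold it. Runs of T, TTTTTT, were at 22.3%, against 43.9%, 35.4% and 47.6%, and the splice acceptor letters TTNCAG at 21.9%, against 29.2%, 41.8% and 28.6%. The intervals of these 2 end at 26.6% and 26.1%, below both flanking windows. TATAAA and TTTTTT hold only A and T, and summit windows were richer in G and C. The part of base composition in their lower shares was not tested. The nuclear receptor half-site AGGTCA was at 15 summits (3.56%, 2.01 to 5.81%), against 1.66%, 2.38% and 3.21%, and its variant AGTTCA at 4.99%, against 4.75%, 7.36% and 7.06%. The letters CGCGCAGG were at none of the 421, which allows a share of up to 0.872%. An absence says only that these letters are missing from the window. All 7-letter words were also ranked by their excess at summits over the mean of the flanking windows, after the data had been seen. The ranking was led by ACGCAGA, at 47 summits against 9 and 4 flanking windows, and also held GATAAGA, at 38 against 7 and 4. Words were picked by that excess, so its size is not separate evidence. All 5' ends did not enter the ranking. They held these words in 1.94% and 4.02% of cases, against 11.2% and 9.03% of summits. The leading word shares most of its letters with GACGCAG, so it is not independent of that motif.

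Just inside the upstream limit lay peaks at Y73F8A.27 (-199 bp, signal 361) and nurf-1 (-199 bp, 154), and just outside it cfim-2 (-201 bp, 296) and unc-31 (-201 bp, 136). Just inside the downstream limit lay nhr-131 (+198 bp, 123) and C44C11.6 (+198 bp, 105), where the promoter window ends too. The nearest tRNA gene to any core promoter summit was 794 bp away, at C06G4.4, while the 7 peaks removed lay within 39 bp of one.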

How the data were processed

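Both samples were ChIP-seq libraries of 1 group. Per the notes deposited with the samples, the authors called peaks for each replicate and for the pooled reads against 1 control and derived a reproducible list with the irreproducible discovery rate (IDR); which aligner and caller they ran is not given in the sources used here, nor is the IDR threshold. The antibody label names nhr-102, while the description of both samples names the antibody against GFP, which is followed here. The deposited signal of each peak is the caller's own value, comparable within a list only, the deposited -log10 q was 2.91 in every row of the IDR list and was not used, and the deposited summit offset gave each summit. The lists give no read numbers, so depth is unknown, and exact intervals cover counting error only.

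Coordinates count from 1 in ce11, with genes from Ensembl release 115 on the same assembly. A replicate's value is that of its strongest peak covering the IDR summit. The density of peaks used the bases at which a summit would meet the rule. The 33 gene lists and 17 motifs, like the rule itself, were chosen with earlier results of these data known, and no test was made across peaks or genes, which are not replicates. Genes named are the 25 strongest, up to 4 of each list, those nearest the rule's limits, those differing most between replicates, the 5 weakest, up to 6 with several peaks, nhr-102 and unc-119; wdr-23, nhr-8, further names of the enzyme and receptor families, Y49A3A.3 and the neighbouring genes were chosen after their values were seen. The names etf-1 and daf-21 matched no gene. The rule's code was checked on simulated summits. Alternatives changed the distance limit, windows, tRNA distance, 5' ends, signal threshold, replicate used and motif window. Calculations used Python 3.11.15, numpy 2.4.6, scipy 1.17.1 and matplotlib 3.10.9.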

Additional observations from a re-analysis of the deposited data

How the results depend on the processing

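No paired analysis was possible because there is 1 group. Limiting summits to 100 bp from the 5' end left 193 core promoter peaks, and keeping only the 1398 strongest peaks of the reproducible list left 179 peaks at 174 genes. Among those the median summit was at -92.0 bp, 77.7% were upstream, the median rank was 755 by construction, 9.60% of 5' ends lacked an annotated leader and TGATAA was at 12.8% of summits. They held 6 P450 genes of the 12, 2 UDP-glucuronosyltransferases of the 7, 7 receptors of the 15 and all 6 glutathione S-transferases. Giving each summit to its nearest gene, however many windows hold it, raised the genes to 640, and taking only the most upstream 5' end of each gene lowered the share without a leader to 10%. With the strongest peaks of 1 replicate in place of the reproducible list, the median position was -61.0 to -58.0 bp and the median rank 1545 to 1574. The genes then numbered 406 from replicate 1 and 389 from replicate 2, of which 259 were in both and 252 of those also in the reproducible set; 7 P450 genes, 6 glutathione S-transferases, 4 UDP-glucuronosyltransferases and 11 receptors were in all 3. Requiring a replicate summit within 100 bp instead of a covering peak lowered the share among the strongest of both to 61.5%. Shares of motifs and GC content moved with the window by construction: within 25 bp of the summit TGATAA was at 9.98%, CACGTG at 4.04%, GAGAGA at 10.9% and GACGCAG at 5.94%, with 43.1% GC, and within 100 bp TGATAA was at 28.5%, GAGAGA at 29.0% and GACGCAG at 14.3%, with 38.8% GC. All 5' ends at 25 bp had 6.25%, 1.48%, 4.85% and 1.00%. The causes of the other changes were not tested.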
